A study of Homo sapiens with 9 samples.

Results

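The endoplasmic reticulum (ER) folds secreted and membrane proteins, and 10 genes of that machinery were followed here: HSPA5, HSP90B1, CALR, PDIA4, DNAJB9, DNAJC3, SDF2L1, HERPUD1, EDEM1 and XBP1. They were chosen by name, through every array probe whose RefSeq accession belongs to them, which gave 11 of the 42405 probes and 10 of 19483 named genes. The arrays compared 3 groups of HEK293 cells, a human embryonic kidney line, which had been infected with a retroviral vector and kept as stable, drug-selected populations in DMEM with serum and with no further treatment. Cells of the KD3 group carried shRNA 3 and cells of the KD4 group shRNA 4, both short hairpins directed against SmcHD1, a protein of the structural maintenance of chromosomes family, while the CTL group carried the control hairpin NC5. Each group was measured on 3 one-color Agilent expression arrays. The methods call them biological triplicates, but whether they came from separate infections is not stated, so p-values measure only the spread between these arrays. All groups, CTL included, carry the vector and a hairpin, and the hairpin that defines each knock-down group is a single sequence.

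When unfolded protein accumulates in the ER, 3 membrane sensors signal to the nucleus. ATF6 is cut to release a transcription factor, ERN1 (IRE1) splices the XBP1 mRNA, and EIF2AK3 (PERK) phosphorylates a translation initiation factor, which favors translation of ATF4. The first 2 routes are known for raising chaperones and ER-associated degradation (ERAD) genes, whereas ATF4, which kinases outside the ER also feed, is known for raising genes of amino acid synthesis, amino acid transport and tRNA charging. The comparison made here is whether the ER genes moved with or apart from those amino acid stress genes in the 3 groups.

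The known promoter elements of these routes were read from RefSeq windows of GRCh38.p14 that run from 250 bases before to 50 bases after a transcript start, on both strands. The ER stress response element (ERSE) was searched as CCAAT and CCACG with 9 bases of any kind between them, its shorter variant ERSE-II as ATTGG and CCACG with 1 base between, the XBP1 type element UPRE as TGACGTGG, and the ATF4 type element CARE as TGATGNAA. In the matches below, shown because they are what the 10 genes share or do not share upstream, capitals mark the fixed letters of the motif and each run is read along the gene.
HSPA5, ERSE, chr9:125241386-125241414, minus strand: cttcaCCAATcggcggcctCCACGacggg
HSP90B1, ERSE, chr12:103930211-103930239, plus strand: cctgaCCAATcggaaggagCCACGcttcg
HSP90B1, ERSE reversed, chr12:103930316-103930344, plus strand: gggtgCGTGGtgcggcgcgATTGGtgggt
CALR, ERSE reversed, chr19:12938379-12938407, plus strand: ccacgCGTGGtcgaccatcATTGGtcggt
XBP1, ERSE, chr22:28800598-28800626, minus strand: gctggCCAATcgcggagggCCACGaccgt
SDF2L1, ERSE-II reversed, chr22:21642109-21642129, plus strand: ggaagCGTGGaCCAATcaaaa
HERPUD1, ERSE-II, chr16:56932020-56932040, plus strand: cgccgATTGGgCCACGttggg
HERPUD1, CARE reversed, chr16:56931961-56931978, plus strand: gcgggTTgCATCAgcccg
ASNS, CARE, chr7:97872464-97872481, minus strand: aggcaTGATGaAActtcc
CHAC1, CARE reversed, chr15:40953257-40953274, plus strand: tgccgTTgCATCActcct

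All 10 genes had a window. ERSE stood in 4 of them, against 0.0916% of 27305 genes with a window, and ERSE-II in 2, against 0.0696%. HERPUD1 was the only one of the 10 with a CARE match, a motif found in 4.46% of all genes and in 15 of the 30 amino acid stress genes that had a window. UPRE, present in 0.927% of genes, was found in none of the 10 windows. None of these letters was found in the windows of DNAJB9, DNAJC3, PDIA4 and EDEM1. The elements are not particular to the 10 genes. Of 19 other ER folding genes with a window, ERSE stood in 4 (21.1%), which were CANX, PDIA6, CRELD2 and ERO1B. Among the same 19, ERSE-II stood in HYOU1 and UPRE in 4 (21.1%), HYOU1 included. Of 17 other ERAD genes with a window, 0 held ERSE or ERSE-II and 2 held UPRE. The letters CCACG are common to ERSE and ERSE-II, and their reverse complement lies inside UPRE. A match is a description of the letters in the window and was not tested for binding. These elements were known beforehand as those of the ER routes, and the 10 genes were chosen by name from the same response. Their shares beside all genes are therefore a description and not a test.

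**Figure D1:**
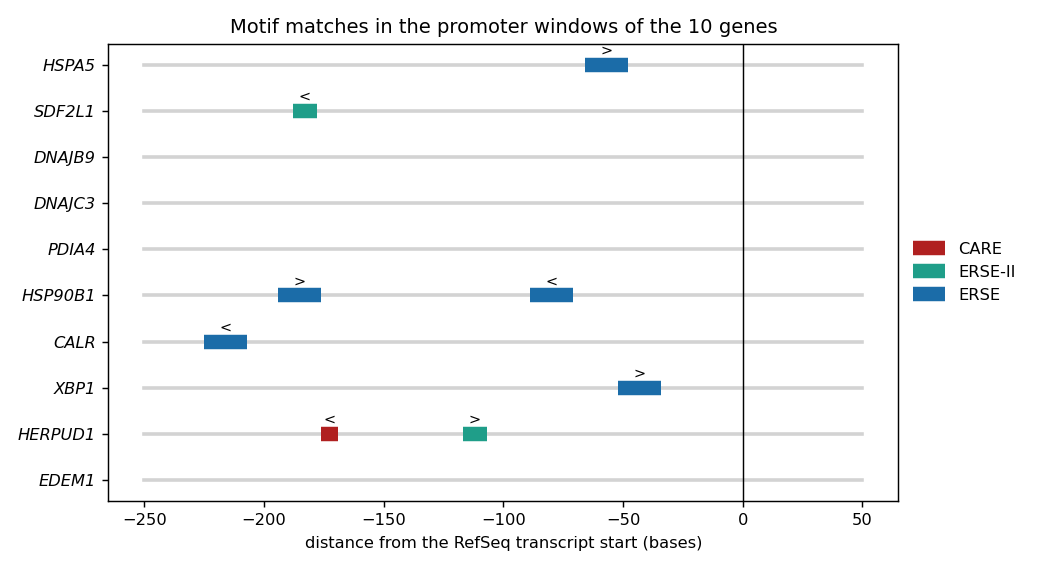
Motif matches in the promoter windows of the 10 genes, by distance in bases from the RefSeq transcript start (vertical line), with ERSE in blue, ERSE-II in green and CARE in red. The sign above a match gives its direction along the gene, grey lines are the windows searched, and DNAJB9, DNAJC3, PDIA4 and EDEM1 hold no match.

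The arrays had median processed signals between 119.6 and 181.4, and 75.1% to 79.8% of probes were well above background. SMCHD1, the targeted gene, differed from CTL by -0.97 in KD3 and -1.53 in KD4 (log2, SE 0.0897, limma adjusted p = 0.000214 and 1.81e-05). No knock-down array reached the CTL arrays, and the KD4 group retained 34.6% of the CTL signal and the KD3 group 51%. All 5 genes associated with HEK293 cells in the marker list (PAX2, NEFL, NEFM, VIM, LIN28B) were well above background on all 9 arrays, with a summed linear signal of 131246 to 154757 per array, most of it VIM. Within that list PAX2 lay below CTL on every knock-down array, by a mean log2 difference of -2.41 in KD3 and -2.65 in KD4, as did NEFM (-1.21 and -1.24) and NEFL (-0.33 and -0.41), and their part in the results was not tested. Of all 16082 tested genes, 3017 lay below CTL on every knock-down array. The summed signal of 5 fibroblast markers was 565 to 826 and of 5 blood cell markers 580 to 907. That of 5 mature kidney epithelium markers was 353 to 487. The fibroblast collagens COL1A2 and COL3A1 were not well above background on any array. All 5 blood cell markers, however, were well above background on all 9 arrays, as were 3 fibroblast and 3 kidney epithelium markers. Detection alone therefore does not tell the marker lists apart. In such bulk cultures a change in the share of cells of a kind and a change in RNA per cell cannot be told apart.

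All 11 probes of the ER genes were well above background on all 9 arrays and were tested. Against CTL, HSPA5, DNAJB9, SDF2L1 and DNAJC3 were higher in KD3, which is 4 of 10 genes, beside 10.4% of all 16082 tested genes that were higher by the same rule (adjusted p under 0.05). None of the 10 was lower in KD3, where 14.8% of all genes were. At an unadjusted p under 0.05 none was lower by limma or by the methods' t-test, where 3510 and 2688 of all genes were. In KD4, HSPA5, DNAJB9 and SDF2L1 were higher, 3 of 10 beside a background of 14.7%, and EDEM1 and HERPUD1 were lower, 2 of 10 beside 19.8%. None of these differences reached the 1.8-fold that the methods ask for, a rule that 1.29% of all genes met upward and 3.14% downward in KD3, and 1.46% upward and 4.13% downward in KD4. The median difference of the 10 genes was 0.15 in KD3 and 0.13 in KD4 on the log2 scale, with -0.01 and 0.00 over all genes. All knock-down arrays lay above all CTL arrays for 4 of the 10 genes and below for 0, beside 2336 and 3017 of all 16082 genes. KD4 arrays alone were clear of CTL upward for 5 of the 10 and downward for 2, beside 3959 and 4563 of all genes. KD3 and KD4 were compared with the same 3 CTL arrays, so the 2 comparisons are not independent of each other.

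HSPA5 (BiP) is the Hsp70 chaperone of the ER lumen and the protein that holds the sensors inactive. Its normalized log2 signal was 10.19, 10.19 and 9.84 on the CTL arrays, 10.61, 10.61 and 10.58 on the KD3 arrays, and 10.65, 10.54 and 10.74 on the KD4 arrays. Every knock-down array lay above every CTL array, and CTL replicate 3 was the lowest of all. KD3 exceeded CTL by 0.53 (SE 0.103, adjusted p = 0.0084) and KD4 by 0.57 (adjusted p = 0.0045), or 1.44-fold and 1.48-fold. By the methods' t-test HSPA5 passed in neither (adjusted p = 0.2 and 0.11).

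SDF2L1, a partner of BiP in the lumen, followed the same course. It read 15.29, 15.38 and 15.12 in CTL, 15.69, 15.86 and 15.72 in KD3, and 15.82, 15.78 and 15.98 in KD4, without overlap between knock-down and CTL arrays. KD3 exceeded CTL by 0.49 (SE 0.0941, adjusted p = 0.00745) and KD4 by 0.60 (adjusted p = 0.00224). By the methods' t-test SDF2L1 passed in neither (adjusted p = 0.101 and 0.0557).

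DNAJB9 (ERdj4) and DNAJC3 (p58IPK) are J-domain co-chaperones that work with BiP. DNAJB9 read 10.22, 10.31 and 10.26 in CTL, 11.07, 10.95 and 10.86 in KD3, and 10.89, 10.82 and 10.93 in KD4. All 3 CTL arrays lay below all knock-down arrays. The rise of DNAJB9 was 0.70 for KD3 (SE 0.0755, adjusted p = 0.000488) and 0.62 for KD4 (adjusted p = 0.00069), the largest upward differences among the 10 genes in each comparison. By the methods' t-test its KD3 rise did not pass (adjusted p = 0.0756). DNAJC3 read 9.42, 9.59 and 9.61 in CTL, 10.20, 10.24 and 10.02 in KD3, and 9.84, 9.72 and 9.86 in KD4, so that the 3 groups were stacked without overlap. It rose by 0.61 (SE 0.0884, adjusted p = 0.00201) in KD3, and its difference of 0.27 in KD4 did not pass (adjusted p = 0.0542), although it passed with normexp background correction (0.0445), with probes required above background on all 9 arrays (0.0487) and without KD3 replicate 3 (0.0458). By the methods' t-test the KD3 rise of DNAJC3 did not pass (adjusted p = 0.07).

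The other folding genes gave no call. PDIA4, a disulfide isomerase, read 11.39, 11.32 and 11.42 in CTL, 11.34, 11.71 and 11.52 in KD3, and 11.61, 11.60 and 11.72 in KD4. Only the KD4 arrays were clear of CTL, with a difference of 0.26 (95% interval 0.04 to 0.49, adjusted p = 0.0734), and KD3 overlapped CTL with 0.15. The KD4 difference of PDIA4 passed when KD4 and CTL alone were fitted (adjusted p = 0.0415), with normexp (0.0295) and without KD3 replicate 1 or 2 (0.0392 and 0.0441).

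HSP90B1 (GRP94), the Hsp90 of the ER, lay on its brighter probe at 16.49, 16.38 and 16.52 in CTL, 16.48, 16.48 and 16.44 in KD3, and 16.54, 16.36 and 16.44 in KD4. The groups overlapped fully, and the 95% intervals of the difference were -0.16 to 0.17 in KD3 and -0.18 to 0.15 in KD4. Its second probe differed from CTL by -0.05 and 0.03, with an interval of -0.31 to 0.21 in KD3 and -0.23 to 0.29 in KD4. CALR, the calcium-binding lectin chaperone of glycoproteins, read 17.22, 17.14 and 17.02 in CTL, 17.01, 17.17 and 17.16 in KD3, and 16.98, 17.05 and 16.94 in KD4. Its differences were -0.02 and -0.14, with intervals of -0.20 to 0.16 and -0.32 to 0.04. For both genes the intervals did not include the 0.53 and 0.57 measured for HSPA5. All 3 genes hold an ERSE in the sequences printed above.

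The ERAD genes EDEM1 and HERPUD1 were lower in KD4. EDEM1, which helps draw misfolded glycoproteins out of the folding cycle, read 7.07, 7.26 and 7.21 in CTL, 7.14, 6.88 and 6.86 in KD3, and 6.81, 6.57 and 6.72 in KD4. All KD4 arrays lay below all others, and KD3 replicate 1 fell within the CTL range. EDEM1 fell by 0.48 (SE 0.104, adjusted p = 0.00999) in KD4, or to 71.9% of CTL, and its KD3 difference of -0.22 did not pass (adjusted p = 0.187). By the methods' t-test the KD4 fall did not pass (adjusted p = 0.0664).

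HERPUD1, a membrane protein of the ERAD complex, read 14.14, 14.36 and 14.47 in CTL, 14.39, 14.35 and 14.13 in KD3, and 13.93, 13.90 and 14.11 in KD4. The KD4 arrays lay below all others, the nearest only just, and KD3 overlapped CTL with a difference of -0.03. The KD4 difference of -0.34 passed narrowly (SE 0.111, adjusted p = 0.0483) and was lost with 75th percentile scaling (adjusted p = 0.088), normexp (0.0733), the authors' log2 values (0.0552), no filter on dim probes (0.0772), KD4 and CTL alone (0.0644) and without any single array other than KD3 replicate 3 or CTL replicate 1. Without CTL replicate 3 it was -0.27 (0.145).

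XBP1, the transcription factor of the IRE1 route and itself a target of ATF6, read 13.61, 13.77 and 13.93 in CTL, 13.98, 13.94 and 13.87 in KD3, and 13.55, 13.56 and 13.62 in KD4. Neither difference from CTL passed, with 0.16 in KD3 (adjusted p = 0.258) and -0.20 in KD4 (adjusted p = 0.13), and the CTL arrays spanned most of the range between the knock-downs. Without CTL replicate 1 the KD4 difference was -0.28 (adjusted p = 0.0383). XBP1 has 1 probe, and the files used here do not tell whether it separates the spliced from the unspliced mRNA, so these values are of XBP1 mRNA as that probe sees it.

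**Figure D2:**
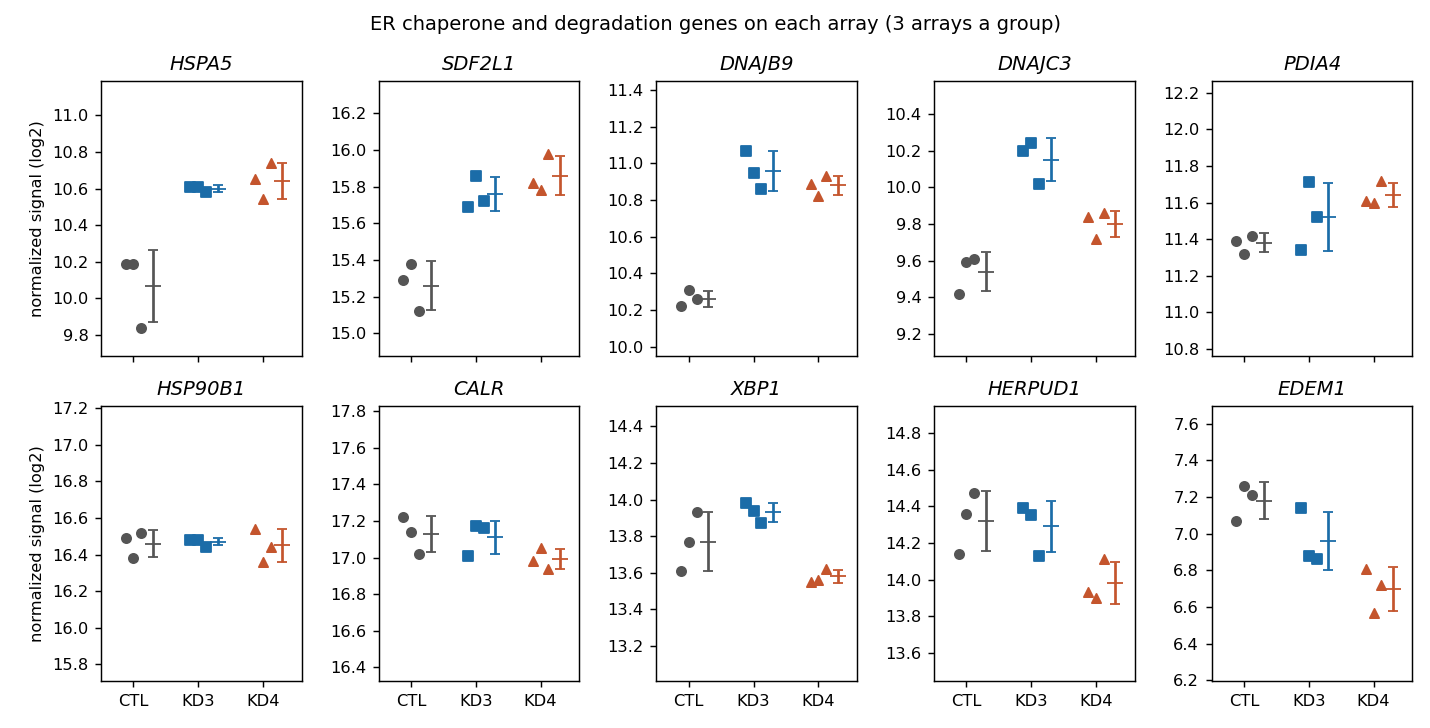
Normalized log2 signal of the 10 genes on each array, with 3 points a group and the mean ± SD beside them (CTL grey circles, KD3 blue squares, KD4 orange triangles). Every panel spans 1.5 log2 units, but levels of different genes come from different probes and cannot be compared. The upper row from HSPA5 to DNAJC3 shows knock-down arrays above CTL, as 2336 of all 16082 tested genes did, and HSP90B1 and CALR overlap.

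Between the 2 knock-downs none of the 10 genes passed, where 1.36% of all genes were higher in KD4 and 1.89% lower, and the methods' t-test with adjustment called 0 of all 16082 genes in this comparison. At an unadjusted p under 0.05 limma gave 4 genes, all lower in KD4, and the t-test gave 3. By that looser rule limma gave 1881 of all genes lower in KD4 and the t-test 1671. The 4 were XBP1, DNAJC3, HERPUD1 and EDEM1, at -0.36, -0.35, -0.31 and -0.26 with adjusted p = 0.077, 0.0803, 0.177 and 0.217. In each of them all 3 KD4 arrays lay below all 3 KD3 arrays, 4 of 10 genes beside 17.5% of all genes. XBP1 passed in this comparison without CTL replicate 1 (adjusted p = 0.0481). For HSPA5 the knock-downs differed by 0.04 (95% interval -0.20 to 0.28), for SDF2L1 by 0.11 (-0.11 to 0.32) and for DNAJB9 by -0.08 (-0.25 to 0.09).

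**Figure D3:**
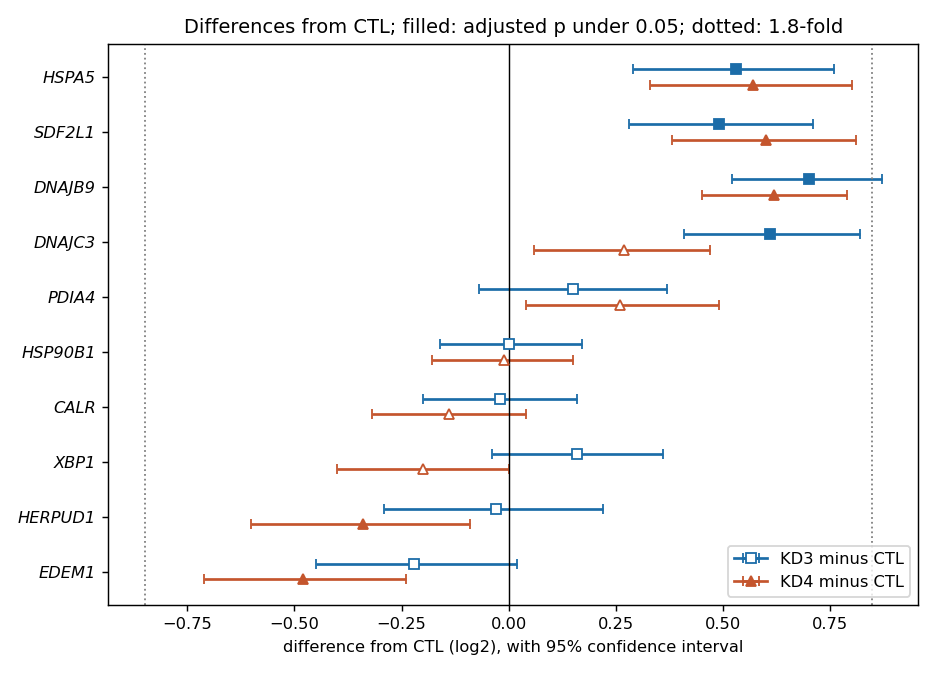
Difference of KD3 (blue squares) and KD4 (orange triangles) from CTL on the log2 scale for the 10 genes, with 95% confidence intervals of the limma fit. Filled symbols passed an adjusted p under 0.05, dotted lines mark 1.8-fold, and the points run from DNAJB9 in KD3 at 0.70 to EDEM1 in KD4 at -0.48.

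The arrays lay on 2 slides that each held all 3 groups, and the differences were recomputed with the slide as a block and within each slide, where a group has 1 or 2 arrays and no test was made. With the block the same numbers of genes passed, 4 higher in KD3, and 3 higher and 2 lower in KD4. Within slides 1 and 2, the HSPA5 difference from CTL was 0.60 and 0.41 for KD3, then 0.62 and 0.46 for KD4. For SDF2L1 it was 0.61 and 0.42 for KD3, then 0.63 and 0.54 for KD4, and for DNAJB9 0.66 and 0.75, then 0.59 and 0.67. DNAJC3 kept a larger difference in KD3 (0.64 and 0.69) than in KD4 (0.19 and 0.42) on both slides. EDEM1 in KD4 was -0.59 and -0.26, and HERPUD1 in KD4 was -0.41 and -0.21, lower on both slides but unevenly so.

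Of all tested genes, those nearest to HSPA5 were sought by the root mean square difference over the 9 arrays of log2 signals taken relative to each gene's own CTL mean. The 5 nearest were RRP36, ELAC2, JPT1, BAG2 and PSMD1, at 0.0571 to 0.062. SDF2L1 came sixth (rank 6, 0.0659) and DNAJB9 had rank 298 and DNAJC3 rank 1210. EDEM1 was at rank 13448 and the amino acid stress gene ASNS at rank 15612 of 16082. HSPA1A, which rose with HSPA5 but by more (1.96 in KD3 and 2.06 in KD4), was at rank 15505. The rank therefore reflects the size of a change as well as its direction.

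Of the rest of the ER machinery, 21 other folding genes held 2 higher (9.52%) and 1 lower (4.76%) in KD3, and 1 higher and 1 lower in KD4, shares below the 10.4%, 14.8%, 14.7% and 19.8% of all genes, with medians of 0.11 and -0.01. Of these HYOU1, the ER Hsp110 that recharges BiP, differed by 0.07 and 0.29 (adjusted p = 0.786 and 0.163), MANF by 0.23 and 0.17 and CRELD2 by 0.11 and -0.13, none of which passed. Those that passed, named after their values were seen, were P4HB (0.29), FKBP2 (0.26) and ERP29 (-0.36) in KD3, and FKBP2 (0.40) and PDIA5 (-0.29) in KD4. The FKBP2 and ERP29 calls in KD3 were lost in 9 and 10 of 19 alternatives and that of PDIA5 in 9, and the dimmer PDIA5 probe differed by 0.13 in KD4.

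Among 22 other ERAD genes, 5 were higher and 0 lower in KD3, and 5 were higher and 2 lower in KD4. These are 22.7% and 0% in KD3, and 22.7% and 9.09% in KD4, beside the 10.4% and 14.8%, and the 14.7% and 19.8%, of all genes. At an unadjusted p under 0.05, 1 was lower in KD3 by either test. Of all genes, limma gave 3510 lower there by that rule and the t-test 2688. FAF2, which brings the p97 ATPase to the ER membrane, rose by 1.04 in KD3 and 0.97 in KD4 (SE 0.061, adjusted p = 2.13e-05 and 2.65e-05), and was the only ER gene of any list to pass 1.8-fold. The others that rose, named after their values were seen, were the p97 cofactors UFD1 and NPLOC4, the channel-associated DERL2, and AUP1, by 0.33 to 0.42 in KD3 and 0.29 to 0.57 in KD4. Against these, and also named after their values were seen, EDEM2 (-0.29) and EDEM3 (-0.28), the relatives of EDEM1, fell in KD4, though the dimmest of the 3 EDEM3 probes differed by 0.06, and the calls were lost in 7 and 5 of 19 alternatives. The ubiquitin ligase partner SEL1L differed by 0.23 and 0.08 and did not pass.

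Of 23 genes for entry to and exit from the ER, 4 were higher (17.4%, beside 10.4% of all genes) and 1 lower (4.35%, beside 14.8%) in KD3, and 5 higher (21.7%, beside 14.7%) and 3 lower (13%, beside 19.8%) in KD4. KDELR3, which returns escaped luminal chaperones, rose by 0.49 in KD3 and 0.77 in KD4 (adjusted p = 0.0101 and 0.000904), the largest rises of this list. The others higher were SEC61B, SSR3 and SERP1 in both knock-downs and SPCS3 in KD4. Lower were SSR2 in KD3 (-0.21), and SEC63 (-0.46), SSR4 (-0.39) and SSR2 (-0.20) in KD4. All genes of this list were named after their values were seen. The sensors themselves gave no call, with ATF6 at 0.04 and -0.13, ERN1 at -0.03 and 0.02, and EIF2AK3 at 0.28 in both. In the list of 11 sensors and related factors only CREB3L4 (-0.37 in KD3, -0.59 in KD4) and CREB3L2 (-0.28 in KD4), both named after their values were seen, fell, and none rose. At an unadjusted p under 0.05 by limma 1 was higher in each comparison, beside 2778 of all genes in KD3 and 3428 in KD4. Lower genes made up 9.09% of this list in KD3 and 18.2% in KD4, beside 14.8% and 19.8% of all genes. The dimmer CREB3L4 probe did not pass (-0.18 and -0.13), and that of CREB3L2 differed by 0.15 in KD4, where its call was lost in 9 of 19 alternatives.

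Calls among the amino acid stress genes were downward. Of 40 such genes, 16 were lower in KD3 and 32 in KD4, beside the 14.8% and 19.8% of all genes, and 24 and 8 did not pass. None was higher in either, also at an unadjusted p by limma or the t-test. Over all genes limma gave 2778 higher in KD3 and 3428 in KD4 at an unadjusted p, and the t-test 2000 and 2605. Their median was -0.32 in KD3 and -0.50 in KD4. ASNS, the asparagine synthetase whose CARE is shown above, read 15.92, 16.12 and 16.60 in CTL, 15.59, 15.56 and 15.14 in KD3, and 15.04, 15.01 and 15.20 in KD4, and fell, with differences of -0.78 (adjusted p = 0.0183) and -1.13 (adjusted p = 0.00258). The serine synthesis enzymes PHGDH and PSAT1 fell, to differences of -0.76 and -0.43 in KD3 and of -0.73 and -0.68 in KD4, although the KD3 call of PSAT1 (adjusted p = 0.0393) was lost in 14 of 19 alternatives, with an adjusted p up to 0.203. The glycine transporter SLC6A9 (-0.80 in KD3, -1.56 in KD4) and VLDLR (-0.55, -0.91, on the brighter of 2 probes) fell in both, while CTH (-0.40 and -0.90) and FGF21 (-0.75 and -1.31) passed in KD4 only, a difference between the knock-downs that did not pass for either (adjusted p = 0.117 and 0.43). FGF21 was dim, above background on 8 of 9 arrays and at 2.78, 3.59 and 4.28 in KD4, and over 18 alternatives its KD4 difference ran from -1.67 to -0.21 (the latter with normexp) and lost its call in 8. Without KD4 replicate 1 it was -0.92.

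Among 17 regulators of the stress response, 7 were lower in KD3 (41.2%, beside 14.8% of all genes), and 10 were lower (58.8%, beside 19.8%) and 1 higher (5.88%, beside 14.7%) in KD4. The higher one was ATF5, named after its value was seen, by 0.26 (limma adjusted p = 0.0473). CHAC1, a glutathione-degrading ATF4 target, read 11.24, 10.96 and 11.78 in CTL, 10.19, 10.27 and 9.78 in KD3 and 9.10, 9.04 and 9.32 in KD4, the widest gap of the list, and fell (-1.25 and -2.17). TRIB3 (-0.73, -0.70), DDIT4 (-0.96, -1.59), JDP2 (-0.73, -1.33) and SESN2 (-0.61, -0.93) also fell in KD3 and KD4. ATF4 (-0.32) and ATF3 (-0.43) fell in KD4, as did NUPR1 (-1.14), while DDIT3 (CHOP) at -0.51 and -0.45 passed in neither (adjusted p = 0.0653 and 0.0741). The KD4 calls of ATF4, ATF3 and NUPR1 were lost in 4, 10 and 8 of 19 alternatives, and the NUPR1 difference ran from -1.45 to -0.72 over them, with CTL arrays at 10.00, 10.39 and 11.45. Of the 4 ATF3 probes the dimmest differed in sign in KD4, at 0.17.

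Per array, the median deviation from the CTL mean of the 10 ER genes was 0.12 to 0.25 in KD3, 0.05 to 0.16 in KD4 and -0.01 to 0.04 in CTL. That of the amino acid stress genes was -0.41 to -0.26 in KD3, -0.50 to -0.48 in KD4 and -0.12 to 0.14 in CTL, where replicate 3 was the high one. CTL replicate 3 was also the highest CTL array for HERPUD1 and XBP1 and the lowest for HSPA5 and SDF2L1. Within slides 1 and 2 the median difference of the ER genes was 0.21 and 0.22 for KD3, then 0.07 and 0.13 for KD4. For the amino acid stress genes it was -0.30 and -0.20, then -0.55 and -0.42. With the slide as a block 14 and 30 amino acid stress genes were lower in KD3 and KD4.

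Heat shock chaperones, many of which heat shock factors are known to raise, were followed for comparison. Most are of the cytosol, and the figures call the list cytosolic heat shock, but it also holds the mitochondrial HSPD1 and HSPE1. Of the 19 genes 13 were higher in KD3 and 13 in KD4 (68.4% in each, beside 10.4% and 14.7% of all genes). None was lower, also at an unadjusted p by either test, and the medians were 0.36 and 0.57. Over all genes limma gave 3510 lower in KD3 and 4086 in KD4 at an unadjusted p, and the t-test 2688 and 3403. The mitochondrial HSPE1 was among the higher genes in both (0.36 and 0.38), and HSPD1 passed in neither (-0.02 and 0.02). HSPA1A rose by 1.96 and 2.06, HSPA1B by 1.01 and 1.43, HSPA1L by 1.24 and 1.66 and CHORDC1 by 0.78 and 0.87. HSPA1A and HSPA1B are near-identical, and their probes may not tell them apart. Whether the HSPA1L probe, dim in CTL (6.14, 5.94 and 5.31), reads that gene alone is not known.

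**Figure D4:**
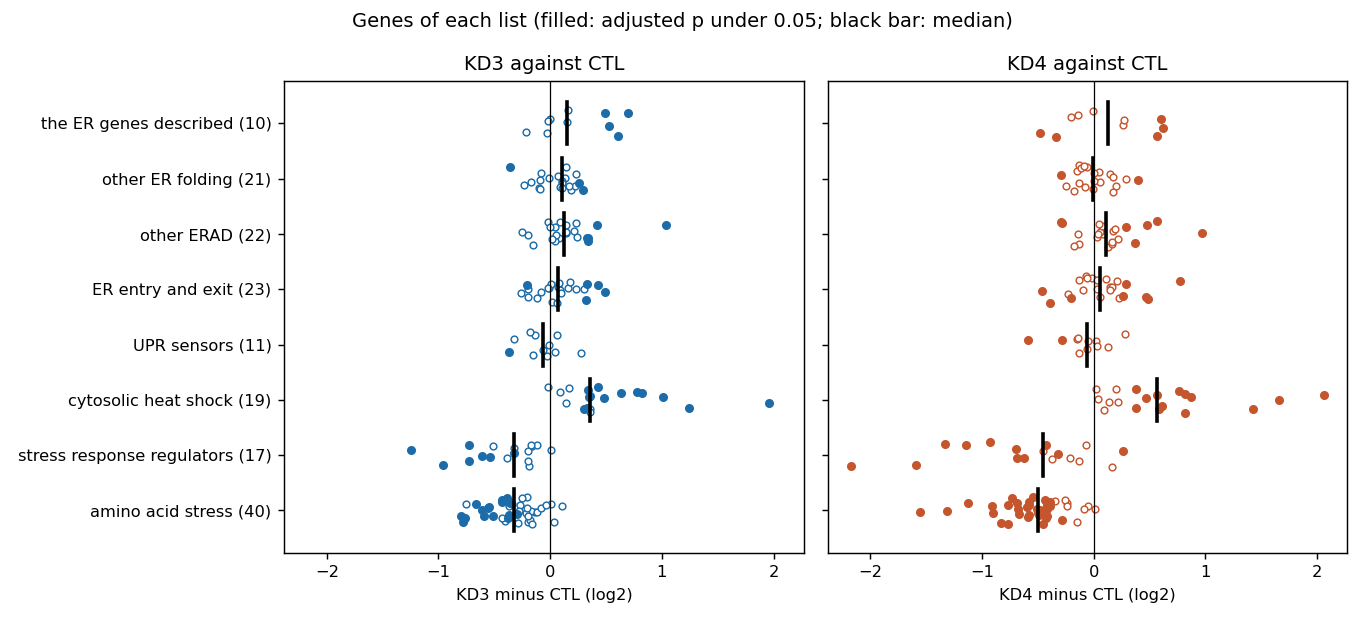
Difference from CTL on the log2 scale for each gene of 8 lists, KD3 on the left and KD4 on the right, with the number of genes in brackets. Filled points passed an adjusted p under 0.05 and the black bar is the list's median, which is 0.15 and 0.13 for the ER genes described, -0.32 and -0.50 for amino acid stress and 0.36 and 0.57 for cytosolic heat shock.

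**Figure D5:**
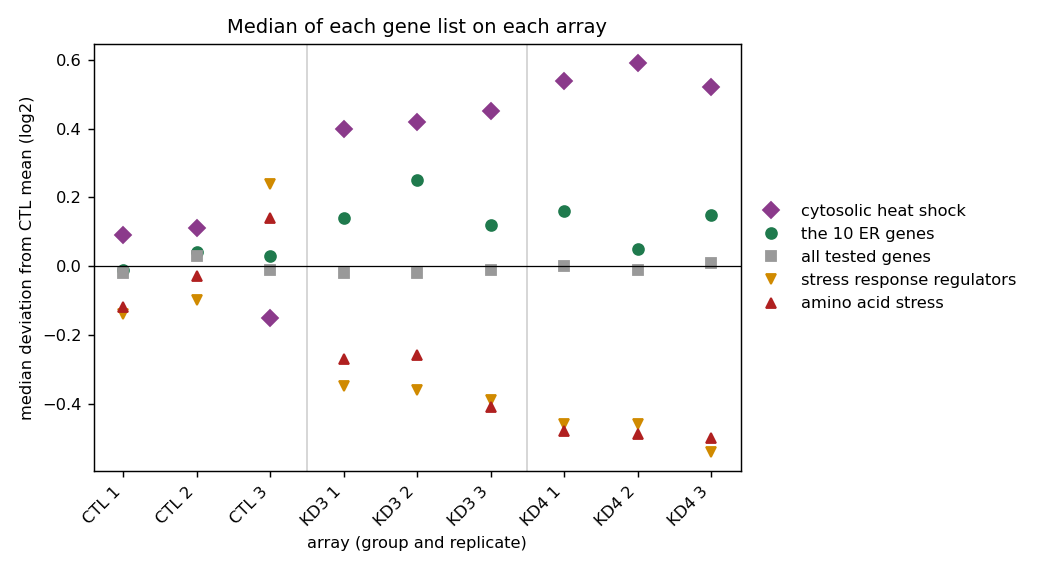
Median deviation from the CTL mean (log2) of 4 gene lists and of all tested genes on each of the 9 arrays. The ER genes lie between 0.05 and 0.25 on the knock-down arrays, the amino acid stress genes between -0.50 and -0.26, and CTL replicate 3 stands apart from the other CTL arrays for the stress lists.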

How the data were processed

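Expression was measured in HEK293 cells of 3 groups on 9 one-color arrays. The deposited scanner files, made with Agilent Feature Extraction 10.10.1.1 per the file headers, hold the green processed signal, an intensity from which the background had been subtracted. The authors also deposited log2 values, quantile normalized in GeneSpring (the methods write quintile), used as an alternative, which differed from the values here by a median of -0.0745.

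Control spots and spots marked as non-uniform or population outliers (260 to 634 of 58717 per array) were left out, and no spot was saturated. Log2 signals were quantile normalized, spots of a probe averaged, and 21 of 42405 probes removed because an array lacked a value. Through RefSeq accessions 25422 probes were named (gene table of GRCh38.p14, which is newer than the build of the array, so probe positions are not given). The 32276 probes that all arrays of some group detected well above background were fitted with limma 3.58.1 in R 4.3.3 (lmFit and eBayes, a mean for each of 3 groups, all 9 arrays), with Benjamini-Hochberg adjustment over these probes. A gene was judged by its brightest tested probe. The number of arrays limits the precision. Replicate arrays had Pearson correlations of 0.99 to 0.9924, and none were identical.

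The genes and lists were chosen with earlier results of these data known. Named genes were all probes of the 10 genes, SMCHD1, 15 fixed stress and ER genes, those of each other list with adjusted p under 0.05 and 1.8-fold in either knock-down (up to 6 a list and direction), and the 5 nearest HSPA5. A few others are named as chosen after their values were seen. The fit was also run on simulated data, with independent noise for each probe and few changed probes. That run does not cover shifts shared by the probes of an array. Alternatives were 75th percentile scaling, normexp (offset 50), the authors' log2 values, no filter or all 9 arrays above background, the methods' unequal-variance t-test, only the compared groups, replicate number or slide as a block, any probe of a gene, the 1.8-fold rule, and leaving out each array. Slides were told apart by their barcodes, and all arrays were scanned on the same day.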

Additional observations from a re-analysis of the deposited data

Results flagged for a closer look

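Of the genes followed here, leaving out the cell type markers, 4 differed between KD4 and KD3. The test was of that difference (limma, Benjamini-Hochberg adjusted p over all tested probes). Of all genes, 1.36% were higher in KD4 and 1.89% lower. EDEM3 was 1 of 22 other ERAD genes (4.55%), SLC6A9 1 of 40 amino acid stress genes (2.5%) and DDIT4 1 of 17 regulators (5.88%). The other lists held none, and over all lists together the share was near that of all genes. SMCHD1 was lower in KD4 than in KD3 by -0.56 on the log2 scale (adjusted p = 0.0195). DDIT4 was lower in KD4 by -0.64 (adjusted p = 0.014) and SLC6A9 by -0.77 (adjusted p = 0.0228). EDEM3, an ERAD mannosidase relative of EDEM1, was lower in KD4 by -0.42 (adjusted p = 0.0238), on the brightest of its 3 probes. Each of these calls was lost in part of 19 alternatives, SMCHD1, DDIT4 and SLC6A9 in 8 and EDEM3 in 10, with an adjusted p up to 0.184, 0.119, 0.25 and 0.161, and none changed direction.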

How the results depend on the processing

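The markers, the genes nearest to HSPA5, HSPD1, HSPE1, ATF5 and the entry and exit genes other than KDELR3 were not rerun. Over the other genes named by their calls, no call changed direction under any alternative. Of the alternative values 2764 kept their side of the threshold, 225 lost it and 29 gained it. The number of ER genes lower in KD4 was 1 in place of 2 with 75th percentile scaling, normexp, the authors' log2 values, no filter, the compared groups alone and the replicate block, and 5 were higher in KD4 with normexp. The cause was not tested. With the methods' t-test after adjustment 0 ER genes were higher in KD3 (4 at an unadjusted p), 1 was higher in KD4 and 0 lower there (2 at an unadjusted p), and 0, 7 and 0 amino acid stress genes were lower in KD3, in KD4 and in KD4 against KD3 (17, 29 and 11 at an unadjusted p). Over all genes that test called 141 higher and 234 lower in KD3 where limma called 1671 and 2378, and 531 and 845 in KD4 where limma called 2364 and 3188. At an unadjusted p the t-test gave 2000 higher and 2688 lower in KD3, and 2605 and 3403 in KD4. It gave 1671 lower in KD4 against KD3. With the 1.8-fold rule 0 ER genes were called in either knock-down against CTL, and 0, 5 and 0 amino acid stress genes were lower in those and in KD4 against KD3. Amino acid stress genes lower in KD4 than in KD3 were 3 with normexp, 2 with the authors' log2 values and 0 with the replicate block, against 1. SMCHD1 in KD4 against KD3, at -0.56, did not pass with the t-test (adjusted p = 0.184), with the replicate block (0.0692) or with the 1.8-fold rule. The replicate numbers were not taken as pairing the samples. This was judged on residuals, the signals left after each group's mean was subtracted from each probe. Residuals of same-numbered arrays of different groups correlated between -0.0775 and 0.143. The replicate block ended the HERPUD1 call in KD4 (adjusted p = 0.0848). Between CTL and KD4, the residuals of each CTL array correlated best with the KD4 array of its own number.

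Leaving out each array in turn gave 4 to 4 ER genes higher in KD3, 3 to 4 higher and 1 to 3 lower in KD4, and 0 to 1 lower in KD4 than in KD3 (XBP1, without CTL replicate 1). Amino acid stress genes lower were 10 to 18 in KD3 (10 without KD3 replicate 3), 26 to 33 in KD4 and 0 to 1 in KD4 against KD3. SMCHD1 ranged from -0.63 to -0.51 in KD4 against KD3 and lost that call without KD3 replicate 1 or 3 (adjusted p = 0.0686 and 0.0654) and without KD4 replicate 1, 2 or 3 (0.0697, 0.0571 and 0.0636). With 3 arrays a group, differences of the size of PDIA4 lie at the edge of what the fit calls.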
